A study of Drosophila melanogaster with 18 samples.

Results

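Wing discs held for 4 h in medium with bovine insulin were compared with wing discs that had not been cultured. The comparison rests on 6 of the 18 libraries of the study, 3 labelled as insulin for 4 h and 3 labelled as without culture, and on every gene with at least 1 FPKM (fragments per kilobase of transcript, scaled to the depth of the library) in at least 3 of the 18 libraries. Of 15602 identifiers in the deposited table, 8524 met that rule, and 7886 of these are protein-coding. Wing discs are the larval epithelial sacs that give rise to the adult wing and part of the thorax. All discs came from wild-type OregonR Drosophila melanogaster larvae at 96 h after egg laying and were dissected in medium free of hormone. The insulin 4 h discs were then kept at 5 µg/ml bovine insulin in buffered Grace's medium with fetal bovine serum, penicillin and streptomycin. Discs kept in the same medium with no hormone for 4 h are given beside them where the difference bears on a result. The uncultured discs were frozen soon after dissection, so they share the dissection and its medium but neither the culture nor the insulin. Insulin against uncultured therefore joins 2 differences, culture and hormone, and insulin against no hormone at 4 h differs, as labelled, by the hormone. Discs were cultured in pools, and the labels do not say whether the replicates of a group came from separate collections of larvae, so the p-values measure the spread between these libraries, which may be technical.

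Insulin-like peptides bind the insulin receptor InR and act through the kinases Pi3K, Pdk1 and Akt1, which restrain the transcription factor foxo and raise the activity of the TOR kinase. In fly tissues this pathway couples nutrition to growth, favouring ribosome production, sugar use and lipid synthesis, while low insulin signalling brings out foxo targets such as Thor and InR. Discs in the larva receive these peptides, steroid hormone and nutrients from the haemolymph, all of which a culture medium has to replace.

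FPKM totals of the 9 libraries lay between 891206 and 918429, and estimated depths between 28.6 and 33.0 M fragments. Pearson's r of log2(FPKM + 1) across genes was 0.973 to 0.984 among insulin libraries, 0.945 to 0.976 among uncultured libraries and 0.920 to 0.955 between the groups. All 17 wing disc marker genes were among the genes tested, and their summed level was 855 to 894 FPKM in insulin and 875 to 935 FPKM in uncultured libraries. Fat body markers summed to at most 0.261 FPKM in insulin and 1.3 FPKM in uncultured libraries, and salivary gland markers to at most 0.221 and 0.606 FPKM. Haemocyte markers summed to 23.3 to 35.2 FPKM in insulin and 21.5 to 28.4 FPKM in uncultured libraries. Of these, crq stood at 18.3 to 23.6 FPKM in the 9 libraries, and PPO1 and PPO2 reached 4.23 and 8.52 FPKM. Hml, He and eater each lay under 1 FPKM in all 9 libraries. Gut transcripts stood out in single libraries. The 12 gut markers summed to 2.23, 280 and 189 FPKM in insulin replicates 1, 2 and 3, to 908, 3.56 and 25.8 FPKM in the no hormone replicates, and to 3.61, 13391 and 2.03 FPKM in the uncultured replicates. Of these markers 6 were tested and 0 were called with limma, and 0 had an unadjusted p under 0.05. Counts are therefore also given without uncultured replicate 2 where it moves them. In bulk tissue, fewer cells of a type and less RNA per cell cannot be told apart.

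A gene was called when its adjusted p from limma, fitted to log2(FPKM + 1) of all 18 libraries, was under 0.05. By this measure 4469 of 8524 genes differed between insulin at 4 h and uncultured discs (52.4%). There were 2197 genes higher in insulin (25.8%) and 2272 lower (26.7%). Changes of at least 2-fold on this scale were made by 353 called genes (4.14%), 228 higher (2.67%) and 125 lower (1.47%). Without uncultured replicate 2 there were 4175 calls. The 3 insulin values lay wholly above the 3 uncultured values for 2559 genes (30%) and wholly below them for 2614 (30.7%), 60.7% in all. For 5320 genes (62.4%) the 95% confidence interval of the change lay wholly within 0.5 log2 of the uncultured level, and such a gene is called near below, whether or not its small change passed the test. In the same fit, no hormone at 4 h against uncultured gave 6017 calls (70.6%), with 35.1% of genes higher and 35.5% lower. Of these, 974 changed at least 2-fold (11.4%; 4.76% of genes higher and 6.66% lower), and 3577 genes were near (42%). These comparisons share the uncultured libraries. Insulin against no hormone at 4 h, the direct test of the hormone within culture, gave 4935 calls (57.9%), 2580 higher in insulin (30.3%) and 2355 lower (27.6%). At least 2-fold changes made up 5.23% of genes there (3.73% higher and 1.5% lower), and 55.1% lay near. For 3 libraries against 3 the smallest p that exact permutation allows is 0.1, so each call rests on the spread estimated across genes and libraries.

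**Figure D1:**
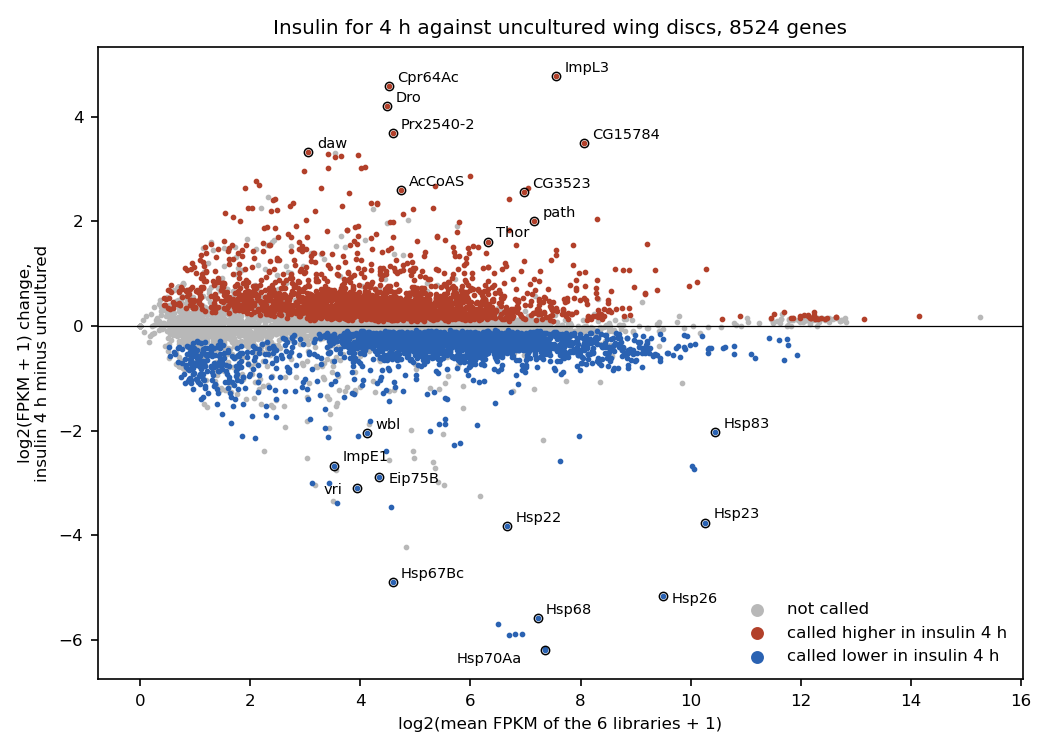
Change in log2(FPKM + 1), insulin 4 h minus uncultured, against the log2 mean FPKM of the 6 libraries plus 1, for 8524 genes. Red points were called higher in insulin 4 h (2197), blue points called lower (2272) and grey points not called, with heat shock genes at the bottom, down to -6.20 for Hsp70Aa, and ImpL3 at the top with 4.78.

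The largest rise belonged to ImpL3 (FBgn0001258, now Ldh), which encodes lactate dehydrogenase, the enzyme that turns pyruvate into lactate. It stood at 501, 195 and 395 FPKM in insulin replicates 1, 2 and 3, at 11.6, 11.2 and 11.3 FPKM without hormone, and at 11.4, 10.2 and 12.5 FPKM in uncultured discs. The lowest insulin library was far above every other library, and the no hormone values lay within the uncultured range. The change was 4.78 ± 0.33 (log2, SE, limma adjusted p = 7.5e-08) against uncultured and 4.78 ± 0.33 (limma adjusted p = 2.84e-08) against no hormone, a mean FPKM 32 times that of uncultured discs.

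The other tested steps of glycolysis, which splits glucose to pyruvate, moved with it. ImpL3 is itself among the 11 genes of the list, and the pyruvate kinase gene PyK was not matched and is not counted. All 11 glycolysis genes matched and tested were called higher in insulin, with a median change of 0.87 against -0.004 over all genes tested, and in each of the 11 the insulin values lay wholly above the uncultured values. Ald, the aldolase gene, stood at 1145, 669 and 844 FPKM in insulin, against 290, 297 and 282 FPKM in uncultured discs (1.57 ± 0.17, SE, limma adjusted p = 4.8e-06). Pfk, which encodes the committed step, phosphofructokinase, stood at 224, 115 and 167 FPKM in insulin, against 55.7, 57.8 and 51.9 FPKM in uncultured discs (1.55 ± 0.22, SE, limma adjusted p = 4.03e-05). Insulin replicate 1 was the highest and replicate 2 the lowest of the insulin libraries for ImpL3, Ald and Pfk alike. The phosphoglycerate mutase gene Pglym78 rose by 1.25 and Gapdh2 by 1.09, while the smallest rise of the list was 0.32, in Gapdh1. Against no hormone the 11 genes were again all called higher in insulin, with a median of 1.19, and in no hormone against uncultured 0 were called higher and 3 lower (limma, median -0.10). Around the pathway, 4 of 10 tested genes of sugar entry and the pentose phosphate branch rose and 1 fell. Calls made up 50% of that list, beside 52.4% of all genes. Treh, which splits the blood sugar trehalose, stood at 44.5, 31.5 and 43.4 FPKM in insulin, at 7.76, 7.49 and 8.44 FPKM without hormone and at 25.9, 25.8 and 26.1 FPKM in uncultured discs, and Zw, the entry enzyme of the pentose phosphate branch, fell by 0.30. Among 15 genes of mitochondrial energy production none was called higher and 13 were called lower, with a median of -0.41. The largest fall there was in Pdk, the kinase that switches off pyruvate dehydrogenase, at 6.13, 6.69 and 5.84 FPKM in insulin, against 12.8, 22.8 and 18.1 FPKM in uncultured discs (-1.35 ± 0.14, SE, limma adjusted p = 3.32e-06). Citrate synthase (kdn) fell by 0.75, the cytochrome oxidase subunit gene CoVa by 0.65 and the ATP synthase subunit gene blw by 0.61. In no hormone against uncultured, 0 of these 15 genes were called higher and 13 lower (median -0.66). In insulin against no hormone, 7 were higher and 1 lower in insulin (median 0.19).

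Of 13 lipid genes matched, 12 were tested, 8 rose and 1 fell, with a median of 0.77. AcCoAS, the largest riser, which makes acetyl-CoA from acetate, stood at 36.9, 54.9 and 42.3 FPKM in insulin, at 3.37, 4.37 and 3.2 FPKM without hormone and at 6.68, 6.04 and 6.6 FPKM in uncultured discs. CG3523 (FASN1 in the reference, the fatty acid synthase) stood at 213, 227 and 198 FPKM in insulin, at 27.3, 33.1 and 26.7 FPKM without hormone and at 32.2, 33.7 and 41 FPKM in uncultured discs. ACC, whose enzyme makes malonyl-CoA for the synthase, stood at 63.5, 66.2 and 60.2 FPKM in insulin, at 18.3, 19.1 and 17.3 FPKM without hormone and at 18.1, 17.7 and 19.7 FPKM in uncultured discs. In each of these genes all insulin libraries lay above all others. The changes against uncultured were 2.60 ± 0.17 for AcCoAS (SE, limma adjusted p = 5.49e-08), 2.55 ± 0.13 for CG3523 (5.67e-09) and 1.72 ± 0.07 for ACC (8.99e-10). HLH106 (SREBP in the reference), the transcription factor that drives lipid synthesis genes, had a mean of 176 ± 3.17 FPKM in insulin, 73.4 ± 3.32 FPKM without hormone and 74.3 ± 2.29 FPKM in uncultured discs (SD, n = 3 each). The lipophorin receptor genes LpR1 and LpR2, whose products take up blood lipid, rose by 0.90 and 0.71, the desaturase gene Desat1 by 0.76 and Lpin, an enzyme gene of glycerolipid synthesis, by 0.77. Lsd-2, a lipid droplet coat gene, fell by 0.46. The lipase gene bmm (0.28) and the acyltransferase gene mdy (-0.06) were among those not called.

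**Figure D2:**
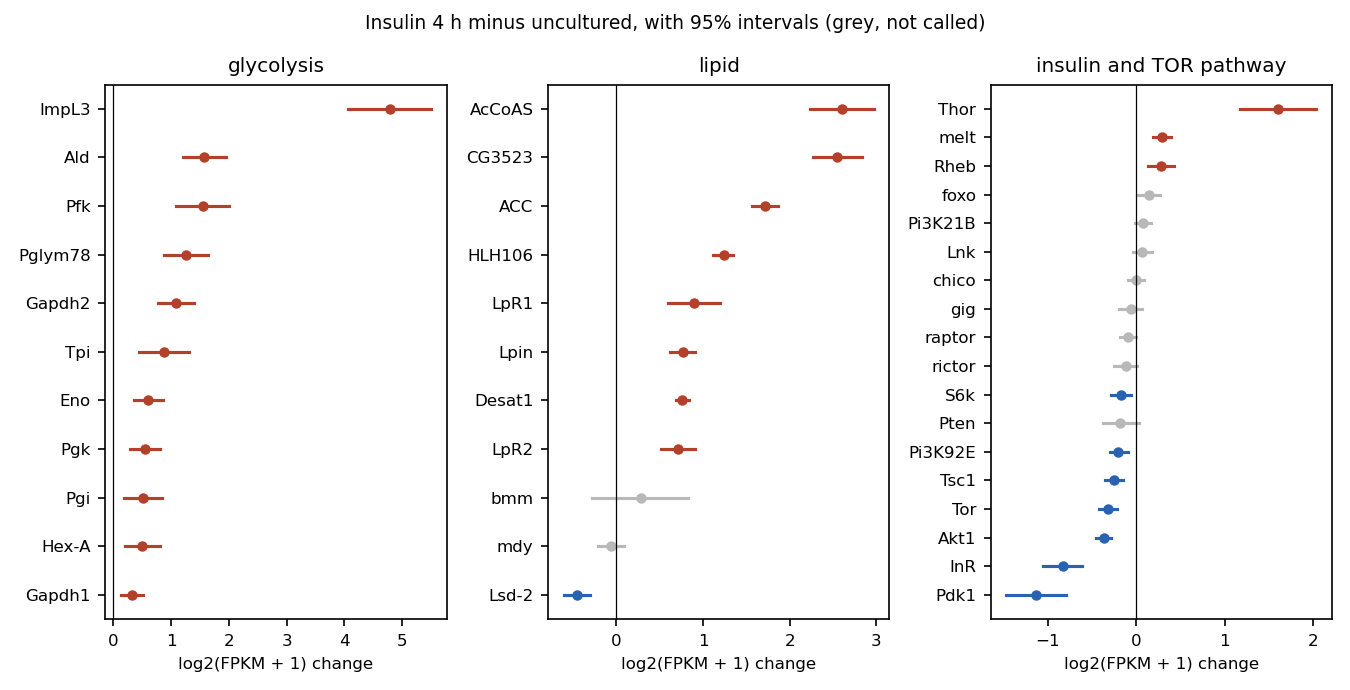
Change in log2(FPKM + 1), insulin 4 h minus uncultured, of tested members of the glycolysis (11 of 11 shown), lipid (11 of 12) and insulin and TOR (18 of 18) lists, with 95% confidence intervals from limma (red, called higher; blue, called lower; grey, not called). ImpL3 (4.78), AcCoAS (2.60) and Thor (1.61) had the largest rise of their lists, and Pdk1 (-1.13) and InR (-0.83) the largest falls of the insulin and TOR list.

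Of 6 tested amino acid carrier genes 3 rose and none fell (50% called, beside 52.4% of all genes). The gene path, for an amino acid carrier of lysosome and cell membranes, stood at 205, 260 and 218 FPKM in insulin, at 9.24, 13.2 and 11.6 FPKM without hormone and at 52.5, 49.9 and 66.3 FPKM in uncultured discs (2.00 ± 0.30 against uncultured, SE, limma adjusted p = 6.74e-05). mnd stood at 82.7, 77.7 and 63 FPKM in insulin, at 2.34, 3.04 and 2.49 FPKM without hormone and at 32.1, 26.5 and 28.1 FPKM in uncultured discs. The groups kept apart in both genes, with insulin highest and no hormone lowest. JhI-21, a relative of mnd, rose by 1.20, and the other 3 of the 6 tested members, among them the arginine carrier gene slif (-0.07), were near. Among the 22 aminoacyl-tRNA synthetase genes, which load amino acids onto tRNA, 11 rose and 2 fell (median 0.19), led by Aats-ser with 0.56. Calls made up 59.1% of them, beside 52.4% of all genes. Aats-arg fell by 0.39 and Aats-gln by 0.19, and the call of Aats-gln was lost without insulin replicate 1 or uncultured replicate 1 (-0.16 in both).

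Genes of the insulin and TOR pathway itself went both ways. Of 18 genes 3 rose and 7 fell, with a median of -0.10, and 15 of the 18 were near (83.3%, against 62.4% of all genes). That is 55.6% called, beside 52.4% of all genes. Against no hormone 15 of the 18 were called, 5 higher and 10 lower in insulin (median -0.15), beside 57.9% of all genes called in that comparison. Thor, which encodes the translation inhibitor 4E-BP and is a foxo target, stood at 125, 133 and 97.8 FPKM in insulin, at 227, 340 and 239 FPKM without hormone and at 31.2, 53.2 and 32.4 FPKM in uncultured discs. The 3 groups did not overlap, with insulin between the other two. The change was 1.61 ± 0.20 (SE, limma adjusted p = 1.33e-05) against uncultured, and -1.16 ± 0.20 (limma adjusted p = 0.000151) against no hormone. InR, the receptor gene, stood at 3.74, 3.8 and 3.54 FPKM in insulin, at 10.4, 10.6 and 9.67 FPKM without hormone and at 6.67, 7.55 and 7.85 FPKM in uncultured discs. Insulin was lowest and no hormone highest without overlap, and the fall against uncultured was -0.83 ± 0.10 (SE, limma adjusted p = 1.19e-05). Pdk1 stood at 8.82, 8.78 and 9.8 FPKM in insulin and at 17.6, 25.9 and 20.8 FPKM in uncultured discs, a fall of -1.13 ± 0.16 (SE, limma adjusted p = 3.77e-05). Its change was larger without hormone, -1.60 against uncultured, and was 0.46 in insulin against no hormone. From uncultured to insulin, Akt1 fell by 0.36, Tor by 0.32 and the S6 kinase gene S6k by 0.17. The call of S6k was lost without insulin replicate 2 (-0.14). The small GTPase gene Rheb rose by 0.28 and melt, a membrane adaptor gene, by 0.29. The adaptor gene chico (19.2 ± 0.432 FPKM in insulin, 19.2 ± 0.523 in uncultured, SD, n = 3 each) and foxo (14.3 ± 1.08 and 12.9 ± 0.41 FPKM in the same order) were not called, and both were near.

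Among secreted factors of the pathway 2 of 4 tested were called, both higher in insulin (50%, against 52.4% of all genes called). ImpL2 encodes a secreted protein that binds insulin-like peptides and lowers signalling. It stood at 314, 225 and 269 FPKM in insulin, at 8.91, 9.57 and 8.26 FPKM without hormone and at 93.5, 99.8 and 120 FPKM in uncultured discs. Insulin libraries were highest and no hormone libraries lowest, without overlap, and the change was 1.35 ± 0.26 (SE, limma adjusted p = 0.000503) against uncultured and 4.76 ± 0.26 (limma adjusted p = 3.12e-09) against no hormone. Sdr, a secreted decoy of the receptor, stood at 16.4, 12.4 and 18.1 FPKM in insulin and at 6.25, 8.63 and 5.04 FPKM in uncultured discs (1.13 ± 0.17, SE, limma adjusted p = 8.06e-05). Of the 7 factors matched, 4 were tested, and the other two, Ilp6 (-0.11) and Ilp8 (-0.07), were not called.

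**Figure D3:**
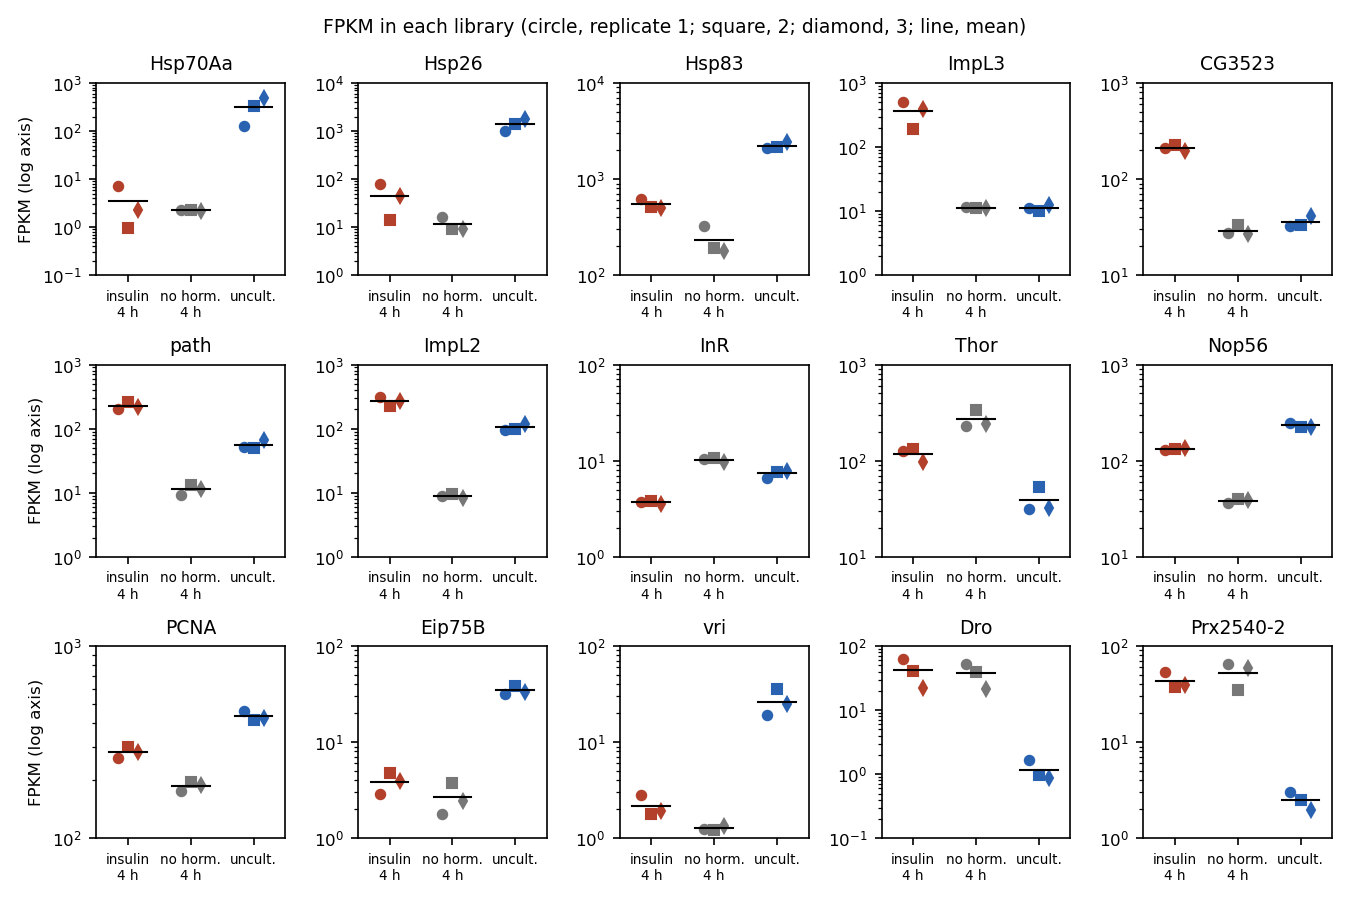
FPKM on log axes of 15 genes in each library of insulin 4 h, no hormone 4 h and uncultured discs (circle, replicate 1; square, replicate 2; diamond, replicate 3; line, mean). For ImpL3 and CG3523 insulin alone is high, for ImpL2 and path the order is insulin, uncultured, no hormone, and for Hsp70Aa, Eip75B and vri uncultured alone is high.

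Starvation and foxo response genes were mixed. Of 18 matched genes 17 were tested, 10 rose and 3 fell (median 0.30). The largest rise was in daw, an activin-like ligand gene, at 22.4, 10.5 and 9.65 FPKM in insulin, at 0.422, 0.312 and 0.318 FPKM without hormone and at 0.15, 1.09 and 0.194 FPKM in uncultured discs (3.32 ± 0.37 against uncultured, SE, limma adjusted p = 5.58e-06). Every insulin library lay above every other library. CG18619 (REPTOR-BP in the reference), a partner of a transcription factor that TOR holds back, stood at 117, 137 and 130 FPKM in insulin, at 332, 363 and 342 FPKM without hormone and at 58.6, 64.5 and 56.7 FPKM in uncultured discs. The stress gene Sesn was at 4.24, 3.25 and 3.76 FPKM in insulin, at 25.1, 21.6 and 20.2 FPKM without hormone and at 3.33, 3.66 and 3.05 FPKM in uncultured discs, so insulin and uncultured ranges overlapped and no hormone was high. Its change was 0.13 against uncultured (limma adjusted p = 0.546) and -2.29 against no hormone (limma adjusted p = 3.45e-08). The members lower in insulin than in uncultured discs were puc, InR and srl, a coactivator gene of mitochondrial biogenesis (-0.59). Autophagy gene products deliver cell contents to the lysosome. Of 20 matched autophagy genes, 19 were tested, 16 rose and 1 fell (Atg16, -0.18), with a median of 0.24 and a largest change of 0.52, in Atg10. With quantile normalization 10 of the rises were called. Atg8a, the protein that coats autophagosomes, stood at 218, 206 and 203 FPKM in insulin, at 346, 358 and 347 FPKM without hormone and at 155, 164 and 141 FPKM in uncultured discs. Against no hormone 1 autophagy gene was called higher in insulin and 14 lower, with a median of -0.42.

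Of 26 ribosome biogenesis genes 23 fell and 1 rose against uncultured (median -0.57), while 25 were higher and 1 lower in insulin against no hormone (median 1.02). Nop56, a core protein of the particles that modify ribosomal RNA, stood at 130, 132 and 135 FPKM in insulin, at 36.3, 39.9 and 39.2 FPKM without hormone and at 247, 225 and 226 FPKM in uncultured discs. Insulin libraries lay between the other groups without overlap, and the changes were -0.81 ± 0.09 (SE, limma adjusted p = 4.82e-06) against uncultured and 1.76 ± 0.09 (limma adjusted p = 1.85e-09) against no hormone. nclb fell by 0.93, hoip by 0.85 and the nucleolar phosphoprotein gene Nopp140 by 0.84. The exception, Non1, stood at 643, 631 and 615 FPKM in insulin, at 775, 792 and 781 FPKM without hormone and at 373, 364 and 394 FPKM in uncultured discs. dm, which encodes Myc, an activator of these genes, fell by 0.31 to 56 ± 0.539 FPKM in insulin, against 69.6 ± 2.33 FPKM in uncultured discs (SD, n = 3 each, limma adjusted p = 0.00692). Cytoplasmic ribosomal protein genes stayed close to the uncultured level. Of 84 tested, 82 were near, 26 were called higher and 2 lower (median 0.14), and the rises called numbered 10 to 30 when single libraries were left out, with 15, 12 and 12 without insulin replicates 1, 2 and 3, and 10 and 11 without uncultured replicates 2 and 3. With all libraries 33.3% were called, beside 52.4% of all genes. Insulin values lay wholly above uncultured values in 62 of the 84 and wholly below in 2, beside 30% and 30.7% of all genes. RpL5 stood at 5464, 5034 and 5402 FPKM in insulin and at 4591, 4191 and 4418 FPKM in uncultured discs. In no hormone against uncultured, 75 of the 84 were called higher and 1 lower (median 0.23). In insulin against no hormone, 0 were higher and 6 lower (median -0.09). Of the 73 mitochondrial ribosomal protein genes, 33 fell and 5 rose against uncultured (median -0.16), with mRpL53 lowest at -1.04 and mRpL28 highest at 0.56. That is 52.1% called, beside 52.4% of all genes, and 62 of the 73 were near (84.9%, against 62.4% of all genes). Against no hormone 40 were higher and 8 lower in insulin (median 0.23).

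Proteasome subunit genes, whose products degrade tagged proteins, were lower in insulin than in uncultured discs in 32 of 33 tested members and higher in none (median -0.46), and higher than without hormone in 29, with none lower (median 0.31). Prosbeta3 stood at 164, 165 and 162 FPKM in insulin, at 136, 129 and 129 FPKM without hormone and at 267, 247 and 242 FPKM in uncultured discs. DNA replication genes fell in 15 of 20 and rose in none against uncultured (median -0.42), and were higher than without hormone in 14, with none lower (median 0.29). The sliding clamp gene PCNA stood at 262, 298 and 281 FPKM in insulin, at 176, 197 and 189 FPKM without hormone and at 461, 412 and 421 FPKM in uncultured discs, a fall of -0.62 ± 0.07 (SE, limma adjusted p = 5.58e-06) against uncultured. Insulin lay between the others without overlap. Of 16 tested purine and pyrimidine synthesis genes 9 fell and none rose (median -0.23), with r-l, for the last step to UMP, lowest at -0.57. That is 56.2% called, beside 52.4% of all genes. Against no hormone 11 of them were higher and 1 lower in insulin (median 0.50). Among 27 cell cycle genes 14 were higher and 7 lower in insulin against no hormone (median 0.17). Against uncultured 18 fell and 2 rose (median -0.22). The mitotic kinase genes aurB and Cdk1 fell by 0.59 and 0.50, and the S phase cyclin gene CycE by 0.49. The mitotic phosphatase gene stg, which times entry into mitosis, stood at 83.6, 99.1 and 92.7 FPKM in insulin, at 41.1, 49.6 and 47.4 FPKM without hormone and at 87.7, 93.1 and 86.1 FPKM in uncultured discs. Its change was 0.04 against uncultured (limma adjusted p = 0.793), with overlapping ranges, and 0.98 against no hormone (limma adjusted p = 6.76e-06). Cks85A rose by 0.33 and CycG by 0.20, CycG at 0.16 and not called without uncultured replicate 2 and also not called without insulin replicate 1 (0.18), insulin replicate 3 (0.21) or uncultured replicate 1 (0.22). Of 17 tested vacuolar proton pump genes 10 rose and none fell (median 0.16, 16 near), 6 of them without insulin replicate 3. With all libraries 58.8% were called, beside 52.4% of all genes.

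**Figure D4:**
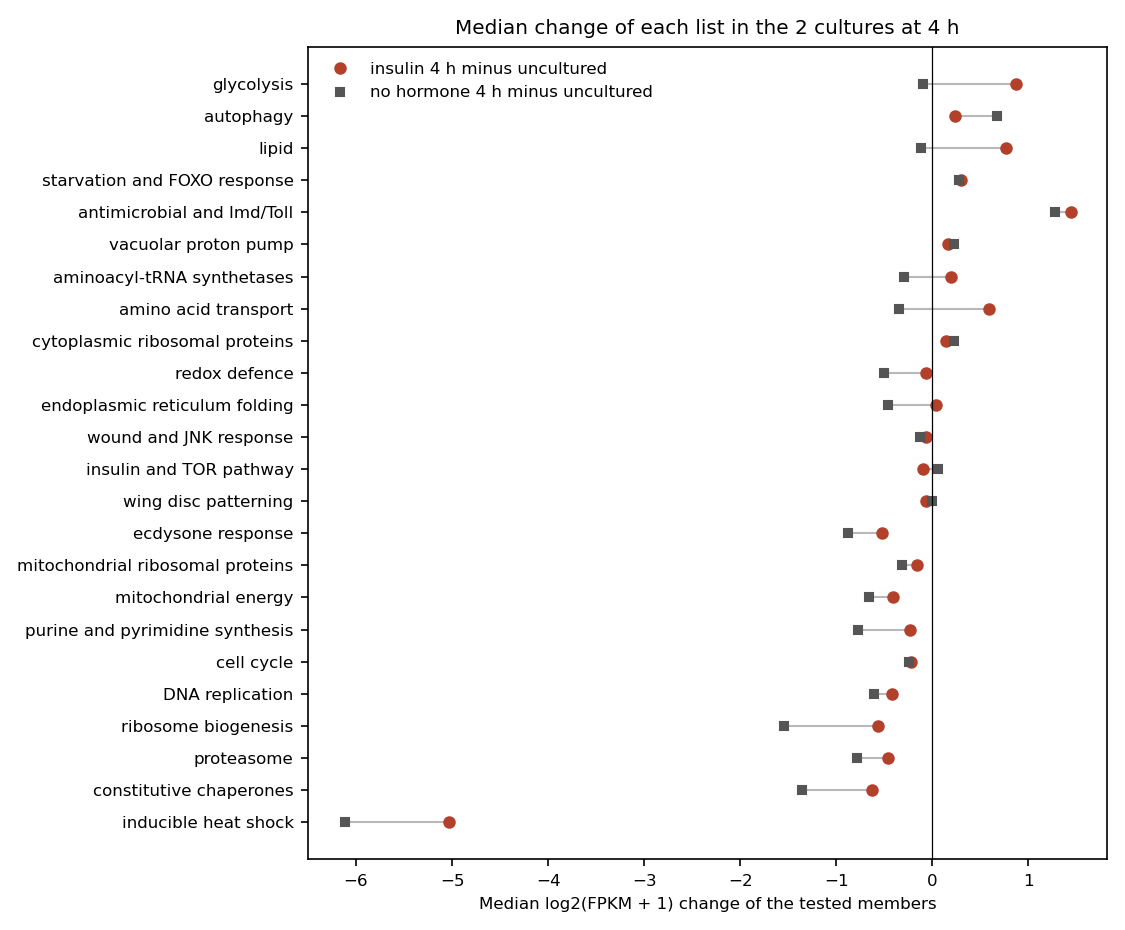
Median change in log2(FPKM + 1) of the tested members of 24 gene lists, insulin 4 h minus uncultured (red circles) and no hormone 4 h minus uncultured (grey squares), which share the uncultured libraries. The circles for glycolysis (0.87) and lipid genes (0.77) lie on the far side of 0 from their squares (-0.10 and -0.12), and inducible heat shock genes lie far to the left in both (-5.03 and -6.12).

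The largest falls were in heat shock genes, which encode chaperones that cells make when proteins unfold. All 16 inducible members were tested and called lower, 15 of them at least 2-fold, with a median of -5.03 and no overlap between insulin and uncultured ranges. Hsp26 stood at 78.7, 14.2 and 44.2 FPKM in insulin, at 16.3, 9.35 and 9.34 FPKM without hormone and at 1013, 1432 and 1771 FPKM in uncultured discs (-5.17 ± 0.42 against uncultured, SE, limma adjusted p = 2.66e-07). Hsp70Aa stood at 7.38, 0.96 and 2.28 FPKM in insulin, at 2.24, 2.29 and 2.16 FPKM without hormone and at 128, 339 and 494 FPKM in uncultured discs (-6.20 ± 0.45, SE, limma adjusted p = 1.1e-07). Insulin replicate 1 was the highest insulin library and uncultured replicate 1 the lowest uncultured library for both genes. The 6 Hsp70 copies, with changes from -6.20 to -5.69, are nearly identical and reads may have been split between them, so their separate levels are uncertain. The other large falls were in Hsp68 (-5.58), Hsp67Bc (-4.90), Hsp22 (-3.82), Hsp23 (-3.76) and Hsp27 (-2.74). Within culture, 3 of the 16 were called higher in insulin than without hormone and none lower (median 0.28). Hsp22 was among them, at 19.3, 10.4 and 8.51 FPKM in insulin and at 1.21, 1.33 and 2.02 FPKM without hormone (2.38 ± 0.34, SE, limma adjusted p = 2.43e-05). Of 13 constitutive chaperone genes matched 12 were tested, 9 fell and none rose (median -0.63). Hsp83, the cytosolic Hsp90, stood at 617, 517 and 506 FPKM in insulin, at 323, 191 and 180 FPKM without hormone and at 2126, 2146 and 2415 FPKM in uncultured discs (-2.03 ± 0.19 against uncultured, SE, limma adjusted p = 1.2e-06). The gene of their activator, Hsf, had 44.9 ± 5.78 FPKM in insulin and 45.8 ± 0.561 FPKM in uncultured discs (SD, n = 3 each, limma adjusted p = 0.705). In the endoplasmic reticulum, 5 of 14 folding genes rose and 6 fell, with 3 rises without insulin replicate 1 or uncultured replicate 3, and with 6 higher and 3 lower under quantile normalization. wbl, which encodes a relative of disulphide isomerases, stood at 7.39, 5.23 and 4.86 FPKM in insulin, at 0.871, 0.662 and 0.854 FPKM without hormone and at 27.4, 31.8 and 22.2 FPKM in uncultured discs. crc, which encodes the stress factor ATF4, rose by 1.06 ± 0.04 (SE, limma adjusted p = 8.99e-10), to 886 ± 30.9 FPKM in insulin, against 424 ± 12.6 FPKM in uncultured discs (SD, n = 3 each).

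Ecdysone response genes, the targets of the moulting steroid, were lower in a majority of called members. Of 22 matched 16 were tested, 9 fell and 3 rose (median -0.52). Eip75B, an early nuclear receptor gene, stood at 2.9, 4.78 and 3.9 FPKM in insulin, at 1.8, 3.79 and 2.45 FPKM without hormone and at 31.9, 38.7 and 32.9 FPKM in uncultured discs. Both cultured groups overlapped each other and lay far below the uncultured libraries. Its change was -2.88 ± 0.18 (SE, limma adjusted p = 2.77e-08) against uncultured and 0.42 ± 0.18 (limma adjusted p = 0.0543) against no hormone. vri, a leucine zipper repressor of the circadian clock, stood at 2.79, 1.77 and 1.93 FPKM in insulin and at 19.2, 35.3 and 24.8 FPKM in uncultured discs (-3.09 ± 0.17, SE, limma adjusted p = 7.87e-09). ImpE1, for a membrane protein that ecdysone induces in discs, stood at 2.29, 2.01 and 2.08 FPKM in insulin and at 19.1, 18.6 and 19.1 FPKM in uncultured discs (-2.67 ± 0.19, SE, limma adjusted p = 8.45e-08). The early transcription factor genes br and Eip74EF fell by 1.11 and 1.04. ImpE2 had a change of -2.01 from scattered values, 29, 3.77 and 11.7 FPKM in insulin and 57.1, 104 and 18.2 FPKM in uncultured discs, which overlap. Its call was lost without insulin replicate 2 (-1.33), insulin replicate 3 (-2.03), uncultured replicate 1 (-1.88) or uncultured replicate 2 (-1.45). The receptor gene EcR rose by 0.40, Eip71CD by 0.43 and ftz-f1, a later nuclear receptor gene, by 0.98 to 38.9 ± 0.74 FPKM in insulin, against 19.4 ± 2.23 FPKM in uncultured discs (SD, n = 3 each, limma adjusted p = 1.73e-06). In insulin against no hormone, 4 of the 16 were called higher and none lower (median 0.31).

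The antimicrobial list holds peptide genes, effectors of the Imd and Toll immune pathways, together with members of those pathways. Of 23 genes matched 21 were tested, 13 rose, 2 fell and 6 were not called (median 1.44). The peptide genes Drs (0.23), Mtk (1.20) and DptB (1.45) were among those not called. Without insulin replicate 1 the rises numbered 8, and without other single libraries 10 to 14. Dro, the drosocin gene, stood at 63.2, 40.4 and 22 FPKM in insulin, at 52.6, 39.5 and 21 FPKM without hormone and at 1.68, 0.972 and 0.871 FPKM in uncultured discs. The cultured groups overlapped each other and lay above every uncultured library, and the change was 4.20 ± 0.67 (SE, limma adjusted p = 0.000114) against uncultured and 0.12 ± 0.67 (limma adjusted p = 0.896) against no hormone. Def, the defensin gene, rose by 3.04 and the cecropin gene CecA1 by 2.96, each lowest in replicate 3 among the insulin libraries. Listericin, another antibacterial peptide gene outside the list, stood at 19.7, 23 and 10.6 FPKM in insulin, at 14.9, 17.9 and 7.14 FPKM without hormone and at 3.07, 0.863 and 0.414 FPKM in uncultured discs (3.02 ± 0.54 against uncultured, SE, limma adjusted p = 0.00031). PGRP-SB1 fell by 0.55 and cact, the gene of the Toll pathway inhibitor, by 0.13. Both calls were lost without insulin replicate 2 (-0.43 and -0.12), insulin replicate 3 (-0.56 and -0.13) or uncultured replicate 1 (-0.31 and -0.08), and that of cact also without insulin replicate 1 (-0.14). In insulin against no hormone, 2 of the 21 were called higher and 4 lower (median 0.12). Haemocyte markers, summing to 23.3 to 35.2 FPKM in insulin and 21.5 to 28.4 FPKM in uncultured libraries, were highest in insulin replicate 1, and their part in these values was not tested.

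Among 20 redox defence genes 6 rose and 8 fell, against 9 higher and 5 lower under quantile normalization. The risers included Prx2540-2 (Prx6c in the reference) and Prx2540-1 (Prx6b), peroxiredoxin genes whose similar sequences make the separate levels uncertain. Prx2540-2 stood at 53.7, 37.7 and 39.6 FPKM in insulin, at 64.8, 34.9 and 58.4 FPKM without hormone and at 3, 2.49 and 1.95 FPKM in uncultured discs (3.68 ± 0.24 against uncultured, SE, limma adjusted p = 4.91e-08). Its cultured groups overlapped. The glutathione transferase gene GstE6 stood at 53.3, 92.8 and 65.4 FPKM in insulin, at 6.07, 16.4 and 14.7 FPKM without hormone and at 9.86, 8.49 and 11.6 FPKM in uncultured discs, so there the insulin libraries alone were high (2.67 ± 0.41 against uncultured, SE, limma adjusted p = 9.06e-05). GstE1 rose by 2.86, the malic enzyme gene Men by 1.62 and Gclc, of glutathione synthesis, by 1.03. The 8 that fell, among them Sod (-0.42) and Sod2 (-0.36), all changed by less than 2-fold. Other genes with the largest rises were Cpr64Ac, CG15784, CG10365, CAH2 and CG12896. CG15784 stood at 511, 466 and 487 FPKM in insulin, at 203, 265 and 219 FPKM without hormone and at 48.1, 33.2 and 46.8 FPKM in uncultured discs (3.50 ± 0.29 against uncultured, SE, limma adjusted p = 3.68e-07). CG10365 was high in insulin alone, with 26.5, 15.2 and 13.7 FPKM in insulin, 1.68, 1.38 and 1.29 FPKM without hormone and 0.783, 1.32 and 0.724 FPKM in uncultured discs. CAH2, a carbonic anhydrase gene, stood at 33, 21.8 and 11.1 FPKM in insulin and at 1.29, 1.17 and 1.24 FPKM in uncultured discs, with no hormone libraries at 19.8 to 37.6 FPKM. The cuticle protein gene Cpr64Ac stood at 104, 9.38 and 17.8 FPKM in insulin and at 0.0968, 0.0894 and 0.25 FPKM in uncultured discs, and its change of 4.58 was 3.61 without insulin replicate 1.

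Wound and JNK response genes did not move as a group, with 5 of 23 higher and 6 lower (median -0.07), and 3 higher without uncultured replicate 2. With all libraries 47.8% were called, beside 52.4% of all genes. The members that fell most are targets or parts of JNK signalling and cell death. rpr, a death activator gene, stood at 14.2, 27.3 and 20.2 FPKM in insulin, at 21.2, 30.1 and 29.5 FPKM without hormone and at 61.8, 76.2 and 73.4 FPKM in uncultured discs (-1.77 ± 0.19 against uncultured, SE, limma adjusted p = 4.18e-06). puc, the JNK phosphatase gene, stood at 11.7, 12.8 and 12.5 FPKM in insulin, at 13.7, 13.6 and 13.7 FPKM without hormone and at 27.9, 31.7 and 30.5 FPKM in uncultured discs. Uncultured libraries were highest for both genes, without overlap with either culture. The Jun and Fos genes Jra and kay fell by 0.77 and 0.38. Gadd45, a stress gene, rose by 1.08, the TNF gene egr by 0.63 and the death gene hid by 0.50. chinmo had a change of 0.95, and its call was lost without insulin replicate 2 (0.74) or uncultured replicate 2 (0.79).

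Wing patterning genes changed little. Of 24 tested, 20 were near (83.3%, against 62.4% of all genes), 3 were called higher and 9 lower (median -0.07), and the falls called numbered 2 without insulin replicate 2, 4 without insulin replicate 3, 6 without uncultured replicate 1 and 3 without uncultured replicate 2. Quantile normalization gave 5 higher and 5 lower. The main fit called 50% of the list, beside 52.4% of all genes. The posterior compartment gene en stood at 34.7, 34.6 and 35.4 FPKM in insulin and at 26.9, 27.8 and 20.3 FPKM in uncultured discs, the largest change of the list at 0.48. The morphogen gene dpp stood at 21.4, 24.2 and 22.3 FPKM in insulin and at 23.5, 22.9 and 22.7 FPKM in uncultured discs (-0.03, limma adjusted p = 0.741). wg, for the Wingless ligand, had a change of -0.29 that was called with all libraries, but not without insulin replicate 2 (-0.27), insulin replicate 3 (-0.27) or uncultured replicate 2 (-0.17). Basement membrane genes rose in 5 of 9 tested members and fell in none (median 0.19), with the collagen genes vkg at 0.37 and Cg25C at 0.33. That is 55.6% called, beside 52.4% of all genes. In no hormone against uncultured 4 were higher and none lower (median 0.26), and in insulin against no hormone 2 were higher and 4 lower (median 0.00). Of 5 tracheal markers 2 were called lower and none higher, with sums of 564 to 596 FPKM in insulin and 704 to 775 FPKM in uncultured libraries. Muscle markers summed to 26.6 to 31.4 FPKM in insulin and 29.1 to 61.2 FPKM in uncultured libraries, with 1 of 6 called, lower. The part of either tissue in these changes was not tested.

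**Figure D5:**
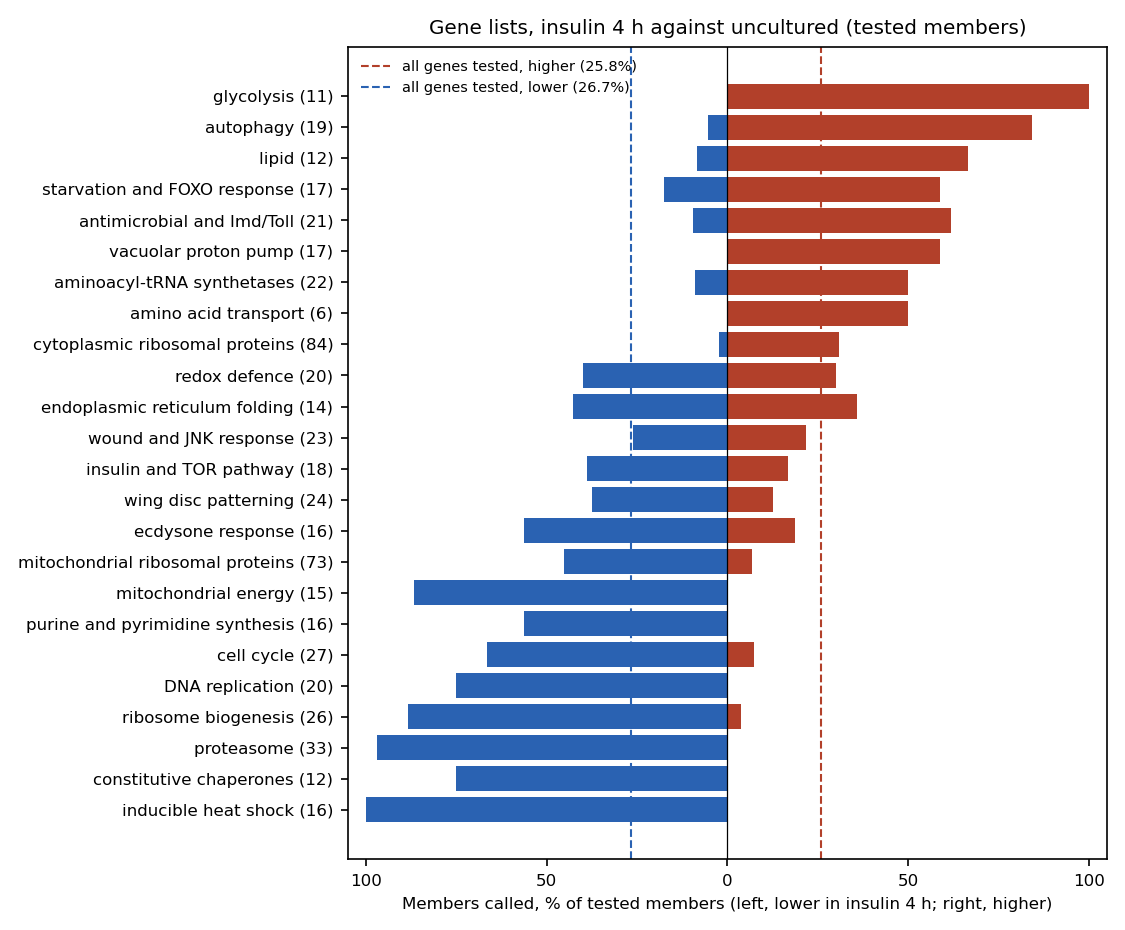
Share of the tested members of each list called lower (blue, to the left) and higher (red, to the right) in insulin 4 h against uncultured, in percent, with dashed lines at the shares over all genes tested (26.7% lower and 25.8% higher) and the number tested in brackets. Glycolysis, autophagy and lipid genes reach far to the right, while heat shock, proteasome and ribosome biogenesis genes reach far to the left.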

How the data were processed

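RNA sequencing of poly(A) RNA from Drosophila wing discs gave 18 libraries in 6 groups of 3, grouped by the sample titles. The authors deposited 1 table of FPKM per gene and replicate. Per the submitters' processing notes, cutadapt, TopHat2 and Cufflinks and the build BDGP5 were used; their versions, the annotation and any scaling between libraries are not given in the sources used here, and upper quartiles of the 9 libraries lay between 25.58 and 26.24 FPKM. Libraries were strand-specific per the labels' protocols. The table holds no counts, so depths were only estimated, from the regular steps of low FPKM values, and entered no test.

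Values were taken as log2(FPKM + 1), which understates changes of low genes. Group was the single term of a linear model of the 18 libraries, made in limma 3.58.1 (R 4.3.3) with moderated variances that follow a mean-variance trend, two-sided tests and Benjamini-Hochberg adjustment over 8524 genes. The step was tested on simulated data. Alternatives changed the pseudocount, filter, scaling, library weights, variance trend, libraries fitted and replicate block, and left out single libraries. The 35 gene lists and 9 marker lists were chosen with earlier results of these data known, so their counts are descriptions. Named genes were the 12 largest rises and 12 largest falls among called protein-coding genes with non-overlapping ranges and 5 FPKM or more as the higher group's mean (3776 qualified), plus, from each list, the 4 largest called changes, called members moving against the majority and preset key genes. Other list members given a value were chosen after their values were seen. Figures were drawn with matplotlib 3.10.9. A lipid gene that was tested and counted is not reported here. Promoter motifs were planned and were not analysed here, and no sequence or coordinate is given.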

Additional observations from a re-analysis of the deposited data

How the results depend on the processing

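The count of genes called in insulin 4 h against uncultured (4469) ran from 4001 (mean of at least 5 FPKM) to 5441 (library weights), and from 3960 to 4175 when single libraries were left out. The counts for insulin against no hormone ran from 4421 to 5771, and those for no hormone against uncultured from 5333 to 6556. Genes called with at least a 2-fold change (353) ran from 236 with the stricter filter to 525 with a pseudocount of 0.1. The count of near genes (5320) was 9593 with no filter, where silent genes were added. Quantile normalization reversed crol to 0.03 and RpL34a to 0.18, and turned the calls of insulin against no hormone to 2248 higher and 2735 lower. Of 175 named genes that were called, 147 had a value in all 15 alternatives and kept their call in each, and 24 lost it in at least 1. Another 4 (daw, RpS19b, Lcp65Ad and Cpr67Fb) kept it in 14 alternatives and were not tested under the stricter filter. Replicate numbers were not used as pairs in the main fit, as the labels state no pairing. Deviations of same-numbered insulin and uncultured libraries correlated at 0.270, 0.236 and -0.193, and not every library correlated best with its own number. In single genes such as Dro and CecA1, levels fell from replicate 1 to replicate 3 in insulin, no hormone and uncultured libraries alike. In others, such as Ald, the order differed between groups. Whether same-numbered replicates shared a collection was not tested. A replicate block gave 4560 calls, 2244 higher and 2316 lower. At these depths the precision of genes near 1 FPKM is low, the table gives no counts, and intervals cover the spread between 3 libraries a group.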

Other observations

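Signalling pathways outside the comparison's metabolic groups moved by small amounts. Of 17 Notch pathway genes 4 rose and 6 fell in insulin at 4 h against uncultured (median -0.02), with 5 each under quantile normalization. The main fit called 58.8% of them, beside 52.4% of all genes. The 4 risers were among 9 tested Enhancer of split genes, which are direct targets of Notch, and the other 5 were not called. Over all genes 25.8% were called higher. E(spl)m4-BFM stood at 40.7, 34 and 36.4 FPKM in insulin, at 75.8, 64.7 and 73 FPKM without hormone and at 19.3, 28.5 and 24.4 FPKM in uncultured discs, 3 ranges that did not overlap (0.61 ± 0.16 against uncultured, SE, limma adjusted p = 0.00541). E(spl)m7-HLH rose by 0.50. E(spl)m8-HLH had a change of 0.52 (0.34 without uncultured replicate 1) and E(spl)m5-HLH of 0.50, not called without insulin replicate 2 (0.46), uncultured replicate 1 (0.42) or uncultured replicate 3 (0.40). E(spl)m5-HLH was near the 1 FPKM limit, at 1.11, 1.29 and 1.14 FPKM in insulin and at 0.392, 0.95 and 0.355 FPKM in uncultured discs. The coactivator gene mam fell by 0.52. In the Hippo pathway 3 of 14 genes rose and 6 fell, with 3 falls without insulin replicate 2, insulin replicate 3 or uncultured replicate 3, and 3 under quantile normalization. The Golgi kinase gene fj fell by 0.58, to 73.6 ± 5.07 FPKM in insulin, against 111 ± 14.2 FPKM in uncultured discs (SD, n = 3 each, limma adjusted p = 5.88e-05), and Mer rose by 0.30. In the EGF receptor pathway 5 of 14 tested genes fell and none rose, led by the ligand gene vn with -0.39. The main fit called 64.3% of the Hippo and 35.7% of the EGF receptor genes, beside 52.4% of all genes.

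Cuticle protein genes were mostly silent. Of 133 matched 53 were tested, and 12 rose and 6 fell, with 9 falls without uncultured replicate 2 and 10 without uncultured replicate 3. With all libraries 34% were called, beside 52.4% of all genes. Cpr66D stood at 87.9, 48.7 and 58.9 FPKM in insulin, at 31.7, 31.3 and 32.4 FPKM without hormone and at 12.7, 13.5 and 11.4 FPKM in uncultured discs (2.25 ± 0.27 against uncultured, SE, limma adjusted p = 8.78e-06). Cpr49Ah stood at 17, 20.2 and 19.5 FPKM in insulin, at 6.5, 9.3 and 7.13 FPKM without hormone and at 75.8, 65.5 and 73.9 FPKM in uncultured discs (-1.87 ± 0.16 against uncultured, SE, limma adjusted p = 4.26e-07). Lcp65Ag2 rose by 2.32, but it has near-identical copies that could share its reads. Of 3 chitinase-like Idgf genes Idgf4 rose by 0.28 and Idgf2 had a change of -0.41, not called without insulin replicate 2 (-0.35) or uncultured replicate 1 (-0.32). Of 4 metallothionein genes tested 0 were called by limma (1 at an unadjusted p under 0.05), and 2 were called lower under quantile normalization. Of 6 Myc network genes 1 rose and 3 fell, against 2 and 1 under quantile normalization, all 6 being near. The nerve and glia markers (2 tested), the haltere marker Ubx and the haemocyte markers (3 tested) gave 0 calls with limma and 0 at an unadjusted p under 0.05, and the wing disc markers 2 higher and 6 lower of 17. Of 6 immediate early genes tested 3 fell and none rose (50% called, beside 52.4% of all genes).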
